A study of Fundulus heteroclitus with 15 samples.

Results

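The comparison set liver RNA of adult female mummichog (Fundulus heteroclitus, a small fish of Atlantic salt marshes) kept for 14 days in water with 250 ng/L of 17α-ethinylestradiol (EE2) against that of females kept in 50 ng/L. EE2 is a synthetic estrogen, used in contraceptives and found in waste water. It used 10 of the 15 arrays of the series, chosen by their treatment label: 5 arrays at 250 ng/L and 5 at 50 ng/L. The other 5 arrays, of adult females that received no EE2, served for the shared estimate of spread and as a baseline. The labels call the 5 arrays of each group biological replicates, and the sources used here do not say whether each held RNA from 1 fish or from several. The question is how livers of females at the higher dose differ from livers of other females at the lower dose.

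In egg-laying vertebrates the liver of a female makes the yolk precursors, the vitellogenins, and in teleosts also proteins of the egg envelope, which carry a zona pellucida domain. Estrogen from the ovary binds estrogen receptors in hepatocytes, which switch these genes on, and the products are exported through the blood to the growing oocytes. EE2 binds the same receptors. Vitellogenins are large, lipid-bearing phosphoproteins, so making them draws on lipid supply and on the secretory pathway of the cell.

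A level below is the log2 of the background-subtracted Cy3 signal of a probe minus the 75th percentile of its own array, so that 0 is the brightness of the 75th percentile probe. A difference is the mean level at 250 ng/L minus that at 50 ng/L, with its standard error (SE) from limma, and a probe was called at a Benjamini-Hochberg adjusted p under 0.05. The test covered 5928 of 7152 probes, those that Feature Extraction marked as well above background on 5 or more of the 10 exposed arrays. The 75th percentile signal ran from 796 to 2782 (geometric mean 1364) at 250 ng/L and from 543 to 3575 (geometric mean 1047) at 50 ng/L. No spot was flagged as saturated. The largest signal of an array varied less, from 465102 to 653219 at 250 ng/L and from 321596 to 749634 at 50 ng/L. The top level of an array therefore tended to be lower on brighter arrays. Whether this compressed the differences of the brightest probes, such as AN_v_20346 of Vitellogenin I (mean 8.29 at 250 ng/L), was not tested. Levels of tested probes correlated at 0.942 to 0.979 between arrays of the same dose and at 0.944 to 0.969 between arrays of different doses. All 12 hepatocyte marker genes were well above background on all 10 arrays, and so were all 20 exocrine pancreas marker genes. Fish liver can hold pancreatic tissue, and the summed level of the pancreas markers, in multiples of the 75th percentile signal, ran from 169 to 1353 at 250 ng/L and from 139 to 1024 at 50 ng/L. In bulk tissue, fewer cells of a type and less RNA per cell cannot be told apart.

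At the higher dose 67 probes rose (1.13% of those tested) and 2 fell (0.0337%), together 69 called probes (1.16%), of which 64 differed by 2-fold or more. The largest rises were those of Vitellogenin II and of small secreted proteins of the whey acidic protein (WAP) type, and other vitellogenins and egg envelope proteins also rose. The called rises ranged from 0.95 to 5.09 on the log2 scale. The 51 called probes with a gene name stand for 42 genes, of which 40 rose and 2 fell, while 17 called probes carry no name and 1 is named as a hypothetical protein. The median difference over all tested probes was -0.04, and 45.2% of them had a positive difference. The 2 dose groups did not overlap for 66 of the 69 called probes, which the call itself favours, and for 174 of all tested probes (2.94%). Before adjustment 485 probes had a p under 0.05, beside the 296 that make up 5% of those tested.

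**Figure D1:**
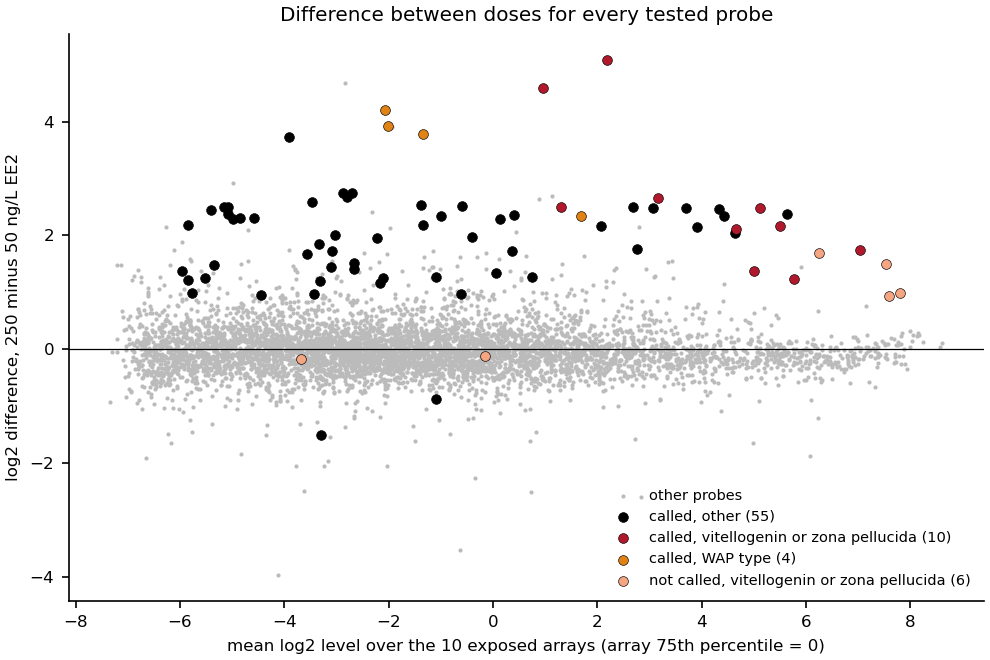
Difference between 250 and 50 ng/L EE2 (log2, vertical axis) against the mean level over the 10 exposed arrays (log2 relative to the 75th percentile of the array, horizontal axis) for each of the 5928 tested probes. Coloured and black points are the 69 called probes, of which 67 lie above 0; pale red points are vitellogenin and zona pellucida probes that were not called.

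Vitellogenin II showed the largest difference of any called probe. Its leading probe (An_u_20378) stood at 5.04, 4.93, 4.04, 4.67 and 4.98 on the 5 arrays at 250 ng/L, against -0.19, -2.32, 1.56, 0.47 and -1.31 at 50 ng/L. Every array of the higher dose lay within about 1 log2 unit of the others, while those of the lower dose were scattered over almost 4. The difference of 5.09 (SE 0.65) is a 34.0-fold rise (adjusted p = 0.00217). A second Vitellogenin II probe (AN_v_20379) stood at 3.64, 3.97, 2.13, 3.20 and 3.29 at 250 ng/L and at -2.21, -1.90, 0.29, -0.98 and -1.91 at 50 ng/L. It rose 24-fold (4.59, SE 0.55, adjusted p = 0.00182). Another probe under the name Vitellogenin II (An_u_20355) averaged -3.77 at 250 ng/L and -3.60 at 50 ng/L and did not pass the test (adjusted p = 0.896).

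The probe named simply Vitellogenin (An_u_20385) stood at 4.72, 4.25, 4.09, 4.36 and 5.02 at 250 ng/L and at 3.40, 0.19, 2.39, 1.05 and 2.14 at 50 ng/L. Again the groups did not overlap, and the lower dose held the wider spread. It rose 6.28-fold (2.65, SE 0.52, adjusted p = 0.0193), a call that ended without 250 ng/L replicate 1, 250 ng/L replicate 5 or 50 ng/L replicate 4 (adjusted p up to 0.0607). Vitellogenin A2 (An_u_20254) stood at 2.63, 3.18, 1.87, 2.21 and 2.85 at 250 ng/L and at 1.22, -1.55, 0.53, -0.91 and 0.96 at 50 ng/L. It rose 5.66-fold (2.50, SE 0.56, adjusted p = 0.0411). That call is fragile: it ended in 10 of the 15 fits that leave out 1 array (adjusted p up to 0.126, difference 2.10 to 2.79) and held without 250 ng/L replicate 3, 50 ng/L replicate 1 or control replicates 1, 2 and 3.

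Vitellogenin I has 4 tested probes, and they disagree in call. The called probe (An_u_20261) stood at 6.81, 6.46, 6.18, 6.43 and 7.03 at 250 ng/L and at 5.46, 3.77, 4.88, 3.41 and 4.60 at 50 ng/L, a 4.46-fold rise (2.16, SE 0.38, adjusted p = 0.00811). The other probes of the gene differed by 1.70 (SE 0.54), 0.99 (SE 0.43) and 0.93 (SE 0.48), with adjusted p of 0.264, 0.563 and 0.685. On each of those 3, 50 ng/L replicate 3 lay above at least 1 array of the higher dose, so the groups overlapped. Over all 9 vitellogenin probes, 5 were called higher, none was called lower and 4 did not pass, beside 1.13% called higher of all tested probes. By the brightest probe of each gene, the 4 genes had a median difference of 2.58.

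**Figure D2:**
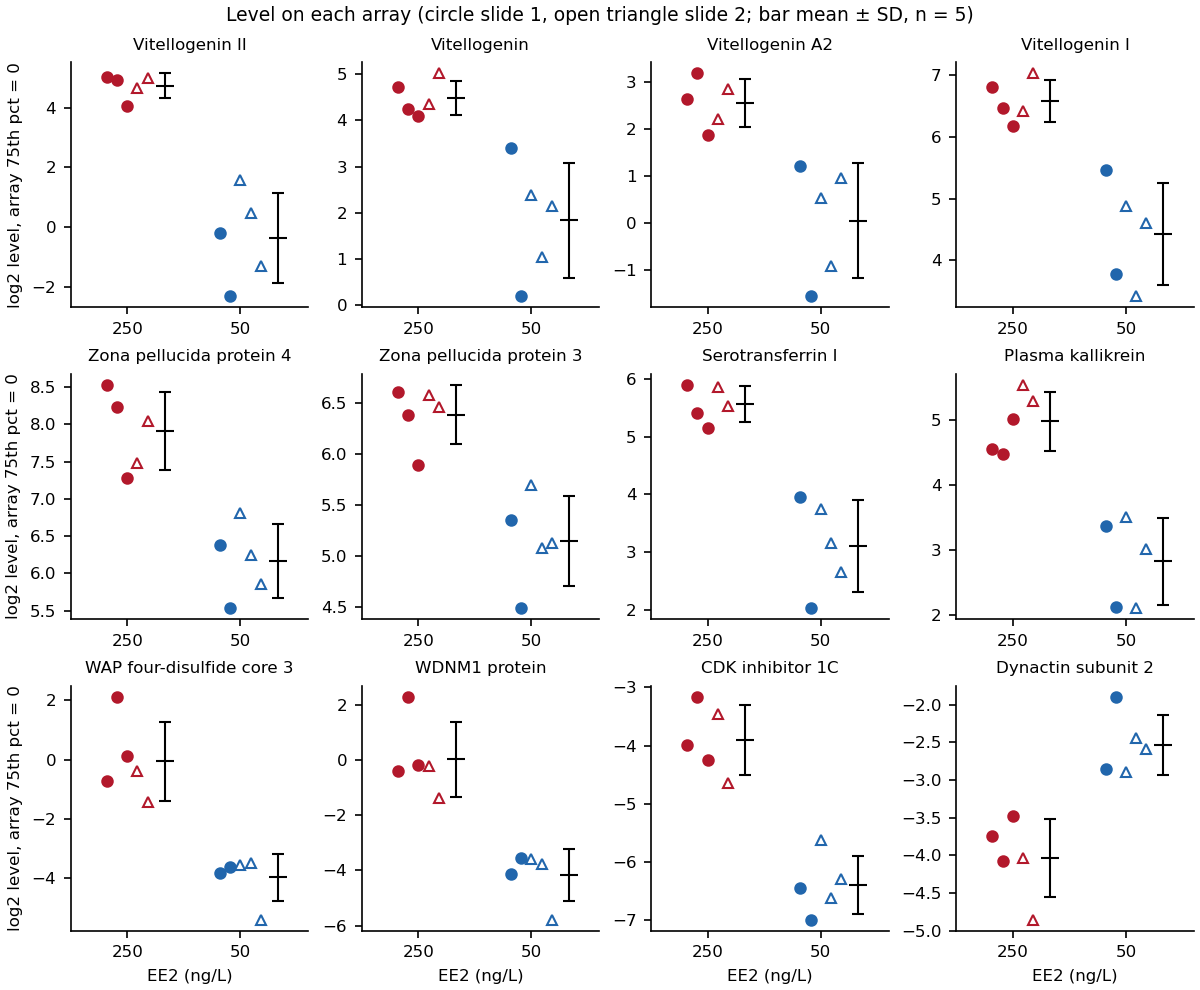
Level (log2 relative to the 75th percentile of the array, vertical axes with their own range) on each array at 250 ng/L (red, left) and 50 ng/L (blue, right) for the brightest called probe of 12 genes; filled circles are slide 1, open triangles slide 2, and bars give the mean ± SD of 5 arrays. The groups do not overlap in any panel, and Dynactin subunit 2 is the panel in which the higher dose is lower.

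Zona pellucida proteins form the envelope around the egg, which in teleosts is in large part made in the liver and called the chorion. Zona pellucida sperm-binding protein 4 rose on 3 of its 4 probes. The probe with the smallest p (An_u_20595) stood at 6.69, 6.33, 6.0, 6.50 and 6.30 at 250 ng/L, against 4.68, 2.79, 4.55, 3.96 and 3.40 at 50 ng/L. The higher dose was the tighter group, with an SD of 0.26 against 0.79, and the difference of 2.49 (SE 0.41) is 5.60-fold (adjusted p = 0.00596). Its other called probes rose by 2.11 (SE 0.46, adjusted p = 0.038) and 1.74 (SE 0.39, adjusted p = 0.0443), and both calls ended in 8 and 11 of the 15 fits without 1 array (adjusted p up to 0.118 and 0.141). The remaining probe (An_u_20617), the brightest of the 4, differed by 1.49 (SE 0.38) with an adjusted p of 0.0931. Its spread was alike at the doses, with an SD of 0.50 at 250 ng/L and 0.49 at 50 ng/L.

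Zona pellucida sperm-binding protein 3 rose on 2 of its 3 probes, by less. One (An_u_20593) stood at 5.87, 5.91, 5.28, 5.72 and 5.63 at 250 ng/L and at 4.34, 3.50, 4.98, 4.53 and 4.18 at 50 ng/L, a rise of 1.38 (SE 0.27, 2.60-fold, adjusted p = 0.0176). That call ended without 250 ng/L replicate 1, 250 ng/L replicate 2 or 50 ng/L replicate 5 (adjusted p up to 0.0597). The other called probe rose by 1.23 (SE 0.27, adjusted p = 0.0382), and the probe that was not called (An_u_20588) differed by -0.12 (SE 0.20). Of the 7 egg envelope probes tested, 5 were called higher, beside 1.13% of all tested probes.

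The estrogen receptors themselves, which carry the hormone's signal to the genes above, gave no call. The 2 probes of estrogen receptor alpha differed by -0.58 (SE 0.47, adjusted p = 0.839) and -0.16 (SE 0.51, adjusted p = 0.977). Levels of the brighter of these probes were 1.92, 2.75, 1.0, 1.22 and 2.19 at 250 ng/L and 1.19, 2.95, 2.46, 2.64 and 2.75 at 50 ng/L, so the groups overlapped. The 2 probes of estrogen receptor BetaA, the name the array gives to a beta receptor, differed by -0.11 (SE 0.20) and -0.19 (SE 0.19).

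WAP-type proteins are small, secreted and rich in disulfide bonds, and several mammalian members inhibit proteases. WDNM1 protein, named for a rodent member of this class, stood at -0.38, 2.29, -0.17, -0.20 and -1.39 at 250 ng/L and at -4.14, -3.55, -3.57, -3.78 and -5.78 at 50 ng/L. The lowest array of the higher dose was more than 2 log2 units above the highest of the lower dose. The rise of 4.19 (SE 0.61) is 18.3-fold (adjusted p = 0.00293). A gene of the same class, WAP four-disulfide core domain protein 3 (An_u_20433), stood at -0.72, 2.12, 0.14, -0.39 and -1.43 at 250 ng/L and at -3.83, -3.61, -3.54, -3.47 and -5.40 at 50 ng/L. It rose 15.1-fold (3.92, SE 0.57, adjusted p = 0.00293).

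The related WAP four-disulfide core domain protein 2 rose on 2 of its 3 probes. The larger rise (AN_v_20431) was 3.79 (SE 0.57, 13.8-fold, adjusted p = 0.00385), from a probe that stood at 0.09, 2.58, 0.38, 0.29 and -0.54 at 250 ng/L and at -3.10, -2.82, -2.92, -2.59 and -4.71 at 50 ng/L. Together with the WDNM1 protein and WAP four-disulfide core domain protein 3 probes just given, it shows the same high array (250 ng/L replicate 2) and the same low array (50 ng/L replicate 5). After the mean of each dose was taken off, the 10 levels of WAP four-disulfide core domain protein 3 correlated at 0.982 with those of WDNM1 protein and at 0.985 with those of this probe, which share their arrays and whose sequences were not compared here. The second called probe of WAP four-disulfide core domain protein 2 (AN_v_20429) stood at 2.93, 3.64, 2.36, 2.91 and 2.44 at 250 ng/L and at 1.66, -0.85, 0.13, 2.14 and -0.47 at 50 ng/L. Its rise of 2.33 (SE 0.51, adjusted p = 0.0382) was not called in 11 of the 15 fits without 1 array (adjusted p up to 0.126). The third probe of that gene and the second of WAP four-disulfide core domain protein 3 differed by 2.70 (SE 0.78) and 2.64 (SE 0.79), with adjusted p of 0.182 and 0.209, and although their groups did not overlap, 50 ng/L replicate 2 was far lower than the rest on both (-2.50 and -2.64).

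Among other secreted proteins of the plasma, the probe named Serotransferrin I, 1 of several for transferrins, the iron carriers of blood, stood at 5.89, 5.41, 5.15, 5.87 and 5.53 at 250 ng/L and at 3.96, 2.03, 3.75, 3.15 and 2.64 at 50 ng/L. It rose 5.52-fold (2.46, SE 0.41, adjusted p = 0.00606), with every array of the higher dose above every array of the lower. The probes named Serotransferrin and transferrin, by contrast, differed by 0.33 (SE 0.31, adjusted p = 0.886) and 0.30 (SE 0.32, adjusted p = 0.902). Of the 15 tested probes of iron handling genes, which include the ferritins and ceruloplasmin, that of Serotransferrin I was the 1 that was called. Plasma kallikrein, named for a serine protease of the contact system of mammalian blood, stood at 4.56, 4.48, 5.03, 5.54 and 5.30 at 250 ng/L and at 3.37, 2.13, 3.52, 2.11 and 3.01 at 50 ng/L. It rose 4.45-fold (2.15, SE 0.37, adjusted p = 0.00768) on this probe (An_u_15526), while a second probe of that name differed by 0.13 (SE 0.25, adjusted p = 0.971). No other probe among the 76 tested for complement and coagulation genes was called. Over all tested probes 1.16% were called.

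Aquaporin-12, a channel protein that in mammals is found in pancreatic acinar cells, stood at 3.09, 2.99, 2.85, 3.32 and 3.49 at 250 ng/L and at 1.38, 1.52, 1.92, -0.22 and 0.29 at 50 ng/L. It rose 4.49-fold (2.17, SE 0.45, adjusted p = 0.026). None of the 58 probes of exocrine pancreas markers was called, beside 1.16% of all tested probes. Their 20 genes had a median difference of 0.04. With the pancreas marker level of each array as a covariate the Aquaporin-12 difference was 2.18 (adjusted p = 0.0201), and without the 2 exposed arrays that lay farthest apart in those markers (250 ng/L replicate 3 and 50 ng/L replicate 1) it was 2.34 (adjusted p = 0.061). Leaving out any 1 of 6 single arrays, 250 ng/L replicates 1, 2, 4 and 5 and 50 ng/L replicates 4 and 5, also ended the call (adjusted p up to 0.0942). Because the pancreas markers differed little between the doses, using them as a covariate could change a dose difference only little. The part of pancreatic tissue in the Aquaporin-12 rise was not tested.

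A further block of risers carries names of proteins of other organisms or tissues, which the array's designers took over from sequence matches. They include DNA translocase ftsK and TraD protein, named for bacterial DNA-transport proteins, Sporozoite surface protein 2, named for a malaria parasite protein, and Gamma-gliadin, named for a wheat seed protein. TraD protein stood at 5.42, 4.72, 4.46, 5.22 and 4.91 at 250 ng/L and at 3.23, 1.46, 3.09, 2.44 and 2.12 at 50 ng/L, a 5.57-fold rise (2.48, SE 0.35, adjusted p = 0.00293). DNA translocase ftsK stood at 4.50, 4.06, 3.54, 4.06 and 3.52 at 250 ng/L and at 2.19, 0.13, 2.23, 1.58 and 1.08 at 50 ng/L, a 5.64-fold rise (2.50, SE 0.41, adjusted p = 0.00596). All 4 probes of Sporozoite surface protein 2 were called, with rises of 2.54, 2.35, 2.30 and 2.04. Gamma-gliadin and App1 protein rose by 2.34 (SE 0.48) and 2.29 (SE 0.49), calls that ended in 5 and 8 of the 15 fits without 1 array (adjusted p up to 0.0737 and 0.0937).

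After each dose mean was taken off, the median correlation with the 4 Zona pellucida sperm-binding protein 4 probes over the 10 arrays was 0.85 for Gamma-gliadin, 0.836 for App1 protein, 0.751 for DNA translocase ftsK and 0.675 for TraD protein. The 4 Sporozoite surface protein 2 probes ran from 0.256 to 0.896. Some called probes with other names had like values, with 0.8 for Putative alpha-mannosidase C20orf31, 0.767 for atrophin-1, 0.765 for Dihydropyrimidinase related protein-5 and 0.648 for Serotransferrin I. Others had lower ones, with 0.516 for Nucleolin, 0.442 for Cyclin-dependent kinase inhibitor 1C and 0.214 for Aquaporin-12. Phosphatidylinositol transfer protein beta isoform had 0.181, Plasma kallikrein 0.058 and Gamma crystallin M2 -0.067. With the 5 called vitellogenin probes, by contrast, the medians of these last genes were 0.547, 0.576 and 0.202 in the same order. Between the Zona pellucida sperm-binding protein 4 probes and those vitellogenin probes the median was 0.58. The 4 Zona pellucida sperm-binding protein 4 probes had a median correlation of 0.816 among themselves, and WAP four-disulfide core domain protein 3 had one of 0.168 with them. These are descriptions over 10 arrays that share their scaling, and the sequences behind the names were not available to compare. The probes were picked by name from the called ones, and the same correlation over all tested probes is not given. Whether these values exceed those of other probes was not tested.

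The same rule picked a set of probes that carry names of intracellular proteins, and their sequences were not compared either. Dihydropyrimidinase related protein-5, a cytosolic protein known from axon guidance, stood at -0.67, -1.21, -2.19, -1.51 and -1.91 at 250 ng/L and at -3.53, -5.32, -3.31, -4.88 and -4.18 at 50 ng/L, a 6.71-fold rise (2.75, SE 0.37, adjusted p = 0.00269). Phosphatidylinositol transfer protein beta isoform, which carries phospholipid between membranes, stood at -0.13, 0.67, 0.89, 1.34 and 0.56 at 250 ng/L and at -1.44, -3.09, -0.91, -2.09 and -1.69 at 50 ng/L, a 5.69-fold rise (2.51, SE 0.39, adjusted p = 0.00446). The transcriptional corepressor atrophin-1 rose 6.02-fold (2.59, SE 0.39, adjusted p = 0.00385), and its groups did not overlap either. Putative alpha-mannosidase C20orf31, named for an enzyme family that trims glycoproteins in the endoplasmic reticulum, stood at -0.72, -1.22, -4.88, -2.04 and -1.40 at 250 ng/L and at -5.58, -6.99, -4.77, -5.05 and -6.48 at 50 ng/L. It rose 13.2-fold (3.73, SE 0.64, adjusted p = 0.00793) although 250 ng/L replicate 3 lay inside the range of the lower dose. With normexp background correction, an alternative that adds a fixed offset to every signal and so shrinks differences of dim probes, that difference was 1.92 (adjusted p = 0.137).

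For some names a single probe rose while other probes of the name did not. Nucleolin, a nucleolar protein of ribosomal RNA production, rose 6.38-fold on 1 probe (2.67, SE 0.40, adjusted p = 0.0036), and its other 2 probes differed by 0.16 (SE 0.34) and 0.05 (SE 0.29). Cytochrome c oxidase subunit 3, a respiratory chain subunit encoded in mitochondrial DNA, rose on 1 of 5 probes (2.37, SE 0.48, adjusted p = 0.0215). The other 4 of its probes differed by 0.04, 0.03, 0.02 and -0.29. That 1 call ended without 250 ng/L replicate 1, 250 ng/L replicate 2 or 50 ng/L replicate 5 (adjusted p up to 0.077), and its probe had a median correlation of 0.895 with the Zona pellucida sperm-binding protein 4 probes within the doses.

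Other called probes were dim. Cyclin-dependent kinase inhibitor 1C, which holds cells back from division, stood at -3.99, -3.16, -4.25, -3.47 and -4.65 at 250 ng/L and at -6.44, -6.99, -5.63, -6.62 and -6.30 at 50 ng/L. It rose 5.63-fold (2.49, SE 0.30, adjusted p = 0.00182) and stayed called without any 1 array. It was the 1 called probe of 14 tested in the cell cycle and DNA replication list, beside 1.16% of all tested probes. That list had a median of 0.17. CYR61 protein, a secreted matrix protein of the early growth response, rose on both its probes, by 1.73 (SE 0.28, adjusted p = 0.00596) and 1.49 (SE 0.32, adjusted p = 0.0349). Early growth response protein 2b, a zinc finger transcription factor, stood at -5.63, -5.19, -5.38, -5.19 and -5.01 at 250 ng/L and at -6.49, -7.25, -6.39, -6.74 and -6.44 at 50 ng/L, a 2.61-fold rise (1.38, SE 0.20, adjusted p = 0.00293). The gonadotropin alpha subunit, a chain of the pituitary hormones that act on the ovary, rose 2.87-fold (1.52, SE 0.29, adjusted p = 0.0169), a call that ended without 250 ng/L replicate 2, 50 ng/L replicate 2 or 50 ng/L replicate 5 (adjusted p up to 0.0634). The Cyclin-dependent kinase inhibitor 1C probe was well above background on 4 of the 5 arrays at 50 ng/L and that of Early growth response protein 2b on 3. None of the probes of these 4 genes was called with normexp background correction, where the difference of Cyclin-dependent kinase inhibitor 1C was 0.74 (adjusted p = 0.693). That alternative called 46 probes in all, 41 of them among the 69, and it moved the median of all tested probes to -0.13.

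The remaining called genes with names rose by 0.97 to 2.31. Glutamate dehydrogenase, an enzyme of amino acid breakdown in mitochondria, rose 2.41-fold (1.27, SE 0.29, adjusted p = 0.0478) on 1 of 2 probes, a call that ended in 13 of the 15 fits without 1 array (adjusted p up to 0.146). The smooth muscle myosin heavy chain probe rose 2.31-fold (1.21, SE 0.26, adjusted p = 0.0302), and that call ended in 7 of these fits (adjusted p up to 0.104). Of 31 tested probes of muscle markers 0 were called, beside 1.16% of all tested probes. These markers had a summed level of 4.10 to 21.3 at 250 ng/L and of 2.53 to 6.04 at 50 ng/L. On the log2 scale the median of that sum was 2.17 at 250 ng/L and 2.18 at 50 ng/L. The part of muscle tissue in the rise of the myosin probe was not tested. All 17 called probes without a name rose, the most being UnAn_28039 (2.75, SE 0.50, adjusted p = 0.0106) and UnAn_23121 (2.50, SE 0.57, adjusted p = 0.0478).

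Both called falls were on probes named for proteins of the cytoskeleton. Dynactin subunit 2, part of the complex that links dynein motors to their cargo, stood at -3.74, -4.07, -3.48, -4.04 and -4.86 at 250 ng/L and at -2.86, -1.90, -2.90, -2.44 and -2.59 at 50 ng/L. It fell by 1.5 on the log2 scale (SE 0.25, adjusted p = 0.00606) without overlap, while the other 2 probes of the name differed by 0.12 (SE 0.26) and -0.08 (SE 0.24). Disheveled associated activator of morphogenesis 1, a formin that assembles actin filaments, stood at -1.37, -1.57, -1.67, -1.57 and -1.43 at 250 ng/L and at -0.89, -0.04, -0.84, -0.67 and -0.79 at 50 ng/L. It fell by 0.88 (SE 0.20, adjusted p = 0.047). This second call ended in 13 of the 15 fits without 1 array (adjusted p up to 0.123) and under 11 of the other 17 alternatives.

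In lists of sterol synthesis and of protein secretion most differences were positive, and no probe was called, beside 1.16% of all tested probes. All 7 cholesterol synthesis genes had a positive difference, with a median of 1.0 beside -0.04 for all probes (0.71 to 1.19 under the alternatives). In that list 0 of 11 probes were called in limma, and the smallest adjusted p was 0.0994. That gene was 14-alpha demethylase, which removes a methyl group from lanosterol, at 0.27, -0.43, -0.62, -1.10 and 0.48 at 250 ng/L and at -1.76, -2.02, -1.71, -1.40 and -3.15 at 50 ng/L (difference 1.73, SE 0.45). Its groups did not overlap, which held for 1 of the 7 genes by the brightest probe of each, beside 2.94% of all tested probes. Counting every probe of the list, 2 of 11 were higher without overlap, beside 2.04% of all tested probes. By array, the median deviation of the 7 genes from their mean over the exposed arrays overlapped between the doses. It ran from -0.06 to 0.93 at 250 ng/L and from -1.02 to -0.005 at 50 ng/L. Isopentenyl-diphosphate delta-isomerase 1 differed by 1.28 (SE 0.43, adjusted p = 0.305) and 3-hydroxy-3-methylglutaryl-coenzyme A reductase, the rate-limiting enzyme of the pathway, by 0.02 (SE 0.43).

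In the list of endoplasmic reticulum folding and secretion genes, which thread and fold secreted proteins, 27 of 31 had a positive difference, with a median of 0.43. Of all tested probes 45.2% had a positive difference. None of the 40 probes was called, beside 1.16% of all tested probes. The smallest adjusted p in limma was 0.0708, for the Sec61 beta subunit of the translocation channel. Protein transport protein Sec61 beta subunit stood at 3.01, 2.82, 3.0, 3.02 and 3.55 at 250 ng/L and at 2.36, 2.60, 2.32, 1.89 and 1.96 at 50 ng/L (difference 0.85, SE 0.21). Endoplasmin, a chaperone of the lumen, differed by 1.25 (SE 0.50, adjusted p = 0.48). By array, the median deviation of the 31 genes from their mean over the 10 exposed arrays was 0.32, 0.01, 0.12, 0.21 and 0.47 at 250 ng/L and -0.07, -0.24, -0.11, -0.28 and -0.23 at 50 ng/L, which do not overlap.

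By the brightest probe of each gene, the 3 genes of the WAP list had a median of 2.33. They are WAP four-disulfide core domain proteins 2 and 3 and Whey acidic protein, and WDNM1 protein is not among them. Whey acidic protein differed by 2.16 (SE 0.72, adjusted p = 0.295). The 2 egg envelope genes had a median of 1.36. The other 21 pathway lists had medians between -0.42, for fatty acid-binding proteins, and 0.20, for cathepsins and lysosomal enzymes. Cathepsin E1 and Cathepsin D, acid proteases of which the second cleaves vitellogenin in the oocyte of several animals, differed by 1.56 (SE 0.39, adjusted p = 0.0828) and 1.44 (SE 0.39, adjusted p = 0.141). In oxidative phosphorylation 16 of 83 genes had a positive difference (median -0.13), beside 45.2% of all tested probes. Of its 155 tested probes 1 was called, that of Cytochrome c oxidase subunit 3, beside 1.16% of all tested probes. By array, the median deviation of the 83 genes from their mean over the exposed arrays overlapped between the doses. It ran from -0.227 to 0.047 at 250 ng/L and from -0.049 to 0.095 at 50 ng/L. Cytosolic ribosomal proteins had a median of -0.09, apolipoproteins of -0.31, and cytochrome P450 and conjugation enzymes of -0.14, with no called probe in any of these 3 lists.

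**Figure D3:**
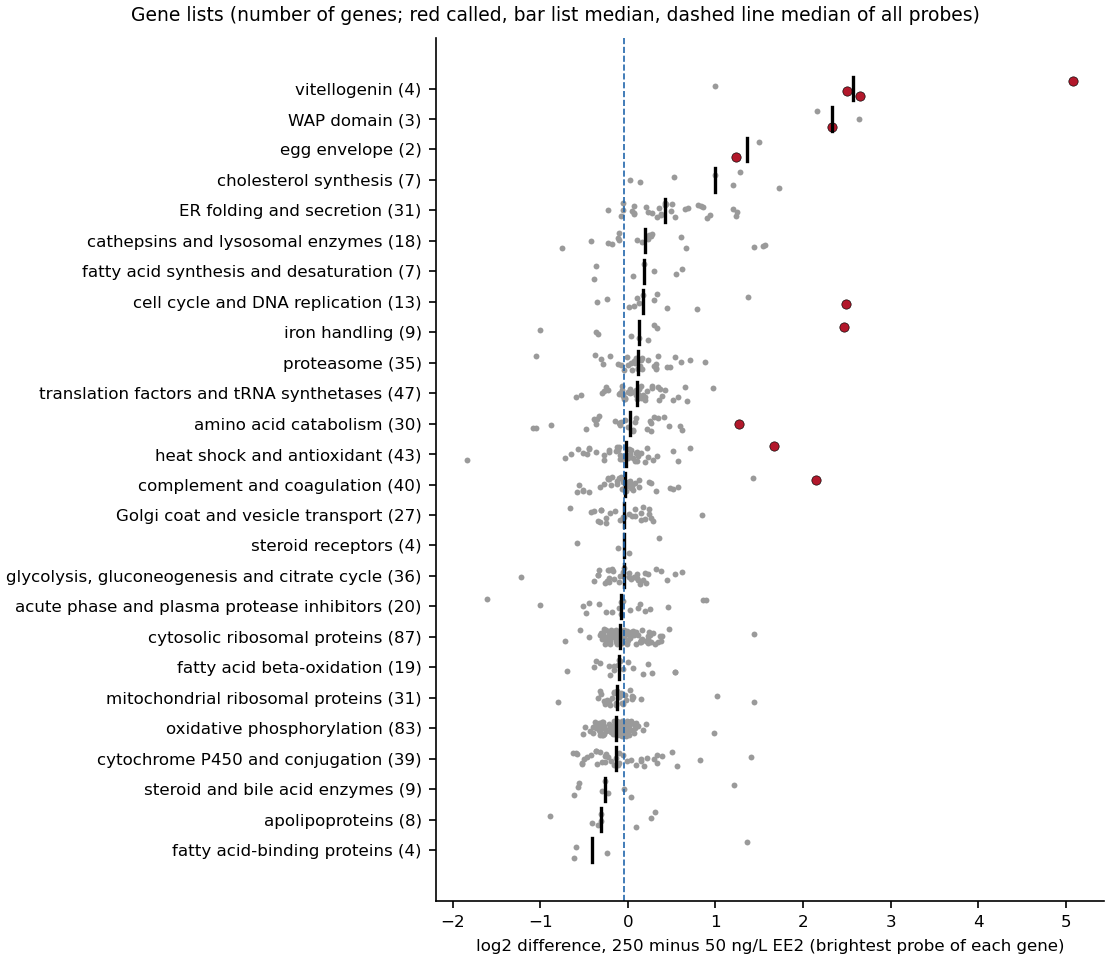
Difference between 250 and 50 ng/L (log2, horizontal axis) of each gene, by its brightest probe, in 26 pathway lists (rows, with the number of genes tested). Red points were called, black bars are list medians and the dashed line is the median of all tested probes, -0.04; the vitellogenin, WAP, egg envelope and cholesterol synthesis lists have medians of 1.0 or more.

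The members can be set beside the unexposed livers. The 3 contrasts share arrays, so only their own values are given. Vitellogenin I (An_u_20261) averaged -1.53 without EE2, 4.42 with 50 ng/L and 6.58 with 250 ng/L, with a difference of 5.96 between 50 ng/L and control (adjusted p = 4.95e-07) and of 2.16 between the doses. Vitellogenin A2, well above background on 3 of the 5 control arrays, averaged -6.28, 0.05 and 2.55 in the same order. Vitellogenin II (An_u_20378) averaged -3.12, -0.36 and 4.73, a difference of 2.77 between 50 ng/L and control (adjusted p = 0.0944) and of 5.09 between the doses.

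WDNM1 protein averaged -5.02 without EE2, -4.17 with 50 ng/L and 0.03 with 250 ng/L, so that 50 ng/L differed from control by 0.86 (adjusted p = 1.0) and 250 ng/L from 50 ng/L by 4.19. Cyclin-dependent kinase inhibitor 1C averaged -6.88, -6.40 and -3.91 in the same order, Early growth response protein 2b -7.13, -6.66 and -5.28, and Glutamate dehydrogenase 0.15, 0.12 and 1.38. The 3 genes of the WAP list, by their brightest probes, differed from WDNM1 protein in this. Their median difference was 3.24 between 50 ng/L and control and 2.33 between the doses. Whether the step between the doses differs from the step between control and 50 ng/L was tested in limma as 1 contrast for each probe. It called 0 of 5928 probes (smallest adjusted p = 0.192, for Vitellogenin I), with 177 at an unadjusted p under 0.05, so no probe is shown to take a larger step at 1 end of the range than at the other. Over all probes, 166 were called between 250 ng/L and control (2.8%) and 34 between 50 ng/L and control (0.574%).

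**Figure D4:**
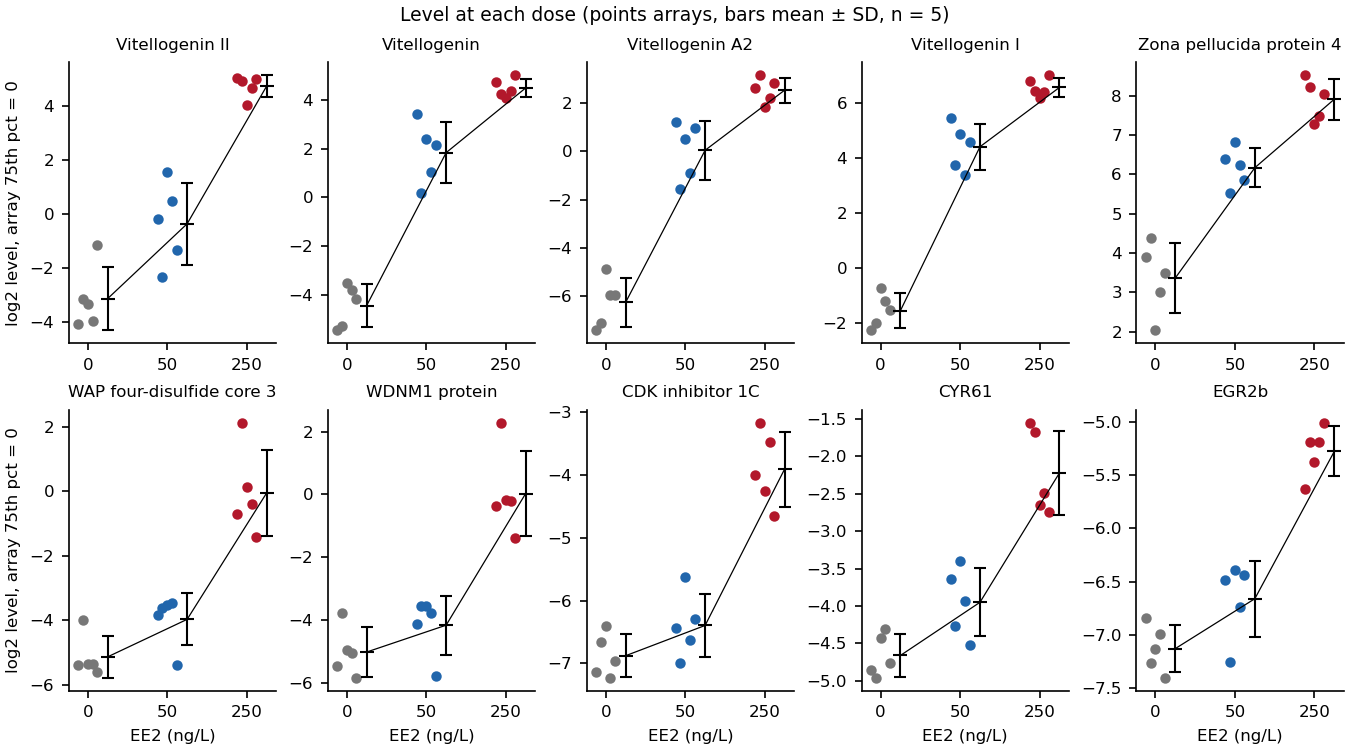
Level (log2 relative to the 75th percentile of the array, vertical axes) against EE2 in the water (0, 50 and 250 ng/L, spaced equally) for the brightest called probe of 10 genes; points are arrays, bars the mean ± SD of 5 arrays, and lines join the means. On the probes shown, Vitellogenin I, Vitellogenin and Vitellogenin A2 take most of their rise between 0 and 50 ng/L. WDNM1 protein and this probe of WAP four-disulfide core domain protein 3 (An_u_20433) take most of theirs between 50 and 250 ng/L. Brighter probes of the WAP list are not shown. The test of that difference between steps called no probe.

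The spread within a dose was alike over the whole array: the median SD was 0.419 at 250 ng/L and 0.427 at 50 ng/L, and the lower dose had the larger SD in 50.3% of tested probes. Among the 69 called probes it had the larger SD in 41. Called yolk probes had SDs of 0.41 at 250 ng/L and 1.51 at 50 ng/L for Vitellogenin II, 0.38 at 250 ng/L and 1.24 at 50 ng/L for Vitellogenin, and 0.34 at 250 ng/L and 0.83 at 50 ng/L for Vitellogenin I (An_u_20261). The brightest Vitellogenin I probe (AN_v_20346), which was not called, had 0.63 at 250 ng/L and 0.62 at 50 ng/L. Serotransferrin I had 0.32 at 250 ng/L and 0.79 at 50 ng/L. In all 4 called probes, 50 ng/L replicate 2 was among the 2 lowest arrays. WDNM1 protein ran the other way, with an SD of 1.36 at 250 ng/L and 0.94 at 50 ng/L, and so did the WAP four-disulfide core domain protein 3 probe, with 1.34 at 250 ng/L and 0.81 at 50 ng/L.

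The arrays came on 2 slides, with 3 arrays at 250 ng/L and 2 at 50 ng/L on slide 1 and 2 and 3 on slide 2, so slide and dose are partly tied. Within slide 1 the 67 called risers differed by 0.96 to 5.92 (median 2.34), and within slide 2 by 0.68 to 4.59 (median 1.90). Over all tested probes the medians were 0.04 and -0.08. Vitellogenin II (An_u_20378) differed by 5.92 on slide 1 and 4.59 on slide 2, WDNM1 protein by 4.42 and 3.58, and Dynactin subunit 2 by -1.39 and -1.80. With slide as a block in the fit, 55 probes were called, all of them among the 69. A test of whether the dose difference itself depends on the slide called 1 of 5928 probes, RTP801, which was not among the 69. Before adjustment 599 probes had a p under 0.05 in that limma test, beside the 296 that make up 5% of those tested. The lack of further calls therefore does not show that the other differences were alike on both slides.

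**Figure D5:**
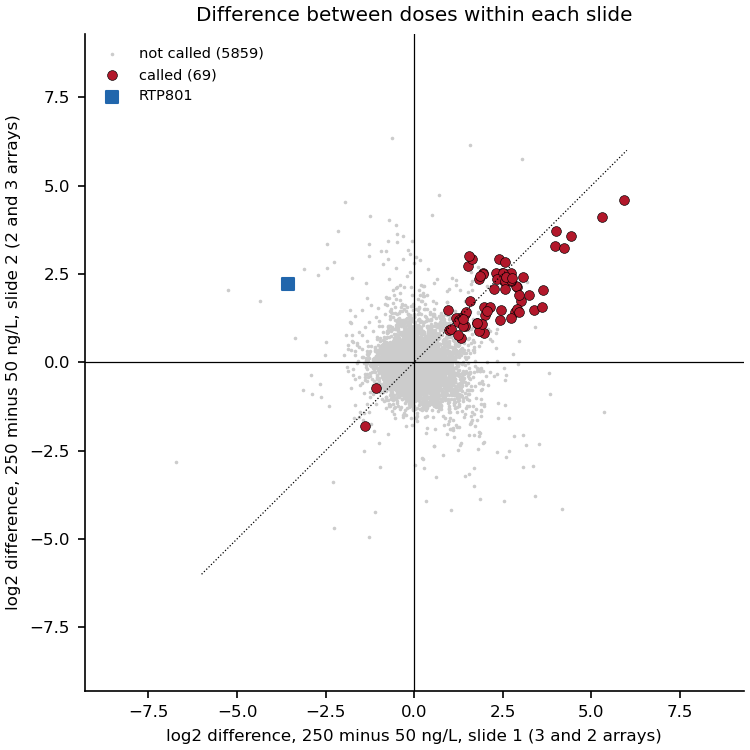
Difference between 250 and 50 ng/L (log2) within slide 2 (vertical axis, 2 and 3 arrays) against that within slide 1 (horizontal axis, 3 and 2 arrays) for each tested probe; red points are the 69 called probes, the blue square is RTP801 and the dotted line marks equal differences. The called risers lie above 0 on both slides, as their call from both slides together favours, and RTP801 lies below 0 on slide 1 and above 0 on slide 2.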

How the data were processed

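Per the labels, Cy3-labelled total RNA of adult female liver was hybridised to 1-colour Agilent arrays. Per the file headers, intensity values were extracted with Agilent Feature Extraction 10.7.1.1, whose processed signal is background-subtracted and not normalized between arrays. The authors also deposited a table of log2 values, which matched the arrays' log2 processed signal at r = 0.993 to 0.998 with column medians of 7.66 to 7.70; the sources used here do not say how it was scaled, and it was fitted as an alternative. Here, control and outlier-flagged spots (0 to 29 per array) were left out, the 2 spots of a probe averaged, and the 75th percentile subtracted on the log2 scale. Replicates were numbered here, in sample order within a group, and the numbers only name an array. Group means were fitted to all 15 arrays with limma 3.58.1 in R 4.3.3 (lmFit, eBayes, two-sided, 12 residual degrees of freedom), adjusting over the 5928 tested probes; the number of arrays limits the precision (median SE 0.289). Tested on simulated data of this comparison over 5928 probes, the fit called 23 of 50 probes shifted by 1, 41 of 50 shifted by 2 and 48 of 50 shifted by 3 on the log2 scale, with 4 false calls. The simulated noise was normal and independent between probes, with a probe's spread the same in all groups. Correlated probes, unequal spread between doses and slides were not simulated, so these counts hold for that setting alone.

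Gene names are those of the array design, found on 4411 of 7152 probes; genome positions were not analysed here. The text names the 15 genes with the largest rise and up to 15 with the largest fall among called, named probes whose 5 arrays all lay beyond the other dose's mean, the brightest such probe standing for its gene; all vitellogenins, zona pellucida proteins and estrogen receptors; up to 4 members of a list; and up to 2 unnamed probes each way. Other called genes are named after their values were seen. Members and lists were chosen with earlier results of these data known. The alternatives included normexp, on the median spot signal, since the Feature Extraction output used here has no column of the planned mean signal. Others were quantile, cyclic loess and median scaling, the authors' table, other filters and the 10 exposed arrays alone. The rest were slide as a block or each slide alone, array brightness as a covariate, trended robust eBayes and leaving out each array. Pancreas markers as a covariate, leaving out 2 arrays by those markers, and the contrast of the 2 dose steps were added after seeing the data.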

Additional observations from a re-analysis of the deposited data

Results flagged for a closer look

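Among 68 sets of 5 arrays tested for a lone array, 5 had a gap to the nearest other array above 0.71 of the set's range; chance gives about 1 in 20. At 50 ng/L, replicate 5 was far below the others for WDNM1 protein (-5.78 against a median of -3.78) and for WAP four-disulfide core domain protein 3 (-5.40 against a median of -3.61). At 250 ng/L, replicate 3 was the low array for the Vitellogenin II probe that was not called (-4.13 against a median of -3.73). At 50 ng/L, replicate 1 was low for 1 probe of estrogen receptor alpha (1.19 against a median of 2.64), and replicate 2 was high for Disheveled associated activator of morphogenesis 1 (-0.0427 against a median of -0.79).

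RTP801, a stress-induced inhibitor of growth signalling, gave opposite dose differences on the 2 slides. On slide 1 it averaged -1.17 over 3 arrays at 250 ng/L and 2.38 over 2 arrays at 50 ng/L, a difference of -3.55. On slide 2 it averaged 0.88 over 2 arrays at 250 ng/L and -1.34 over 3 arrays at 50 ng/L, a difference of 2.22. The gap between these differences was -5.77 (adjusted p = 0.0475, limma), and in each slide the doses did not overlap. With quantile scaling that test called no probe (smallest adjusted p = 0.0583). Over both slides together its difference was -0.50 (adjusted p = 0.969).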

How the results depend on the processing

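The count of called probes between 250 and 50 ng/L, 69, ran from 38 to 73 when each of the 15 arrays was left out in turn. It was 44 without 250 ng/L replicate 1, 41 without 250 ng/L replicate 2 and 38 without 50 ng/L replicate 5, and 36 of the 69 probes stayed called without any 1 array. With slide as a block and the 10 exposed arrays alone it was 37, with 28 of these probes among the 69. It was 0 on slide 1 alone and 0 on slide 2 alone, fits of limma with 3 against 2 arrays, with 465 and 605 probes at an unadjusted p under 0.05. Other scalings, filters and covariates gave 46 to 75, but not always the same probes. With the 10 exposed arrays alone, 49 of the 60 called probes were among the 69. Over all alternatives except each slide alone, 20 of the 69 stayed called throughout. All 69 probes kept their direction under each of the 32 alternatives that tested them, which the call favours since these fits share arrays. The filter for all 10 exposed arrays tested 55 of the 69. The dose by slide test called 1 probe, RTP801, again 1 with the 10 exposed arrays alone, and 0 with quantile scaling (smallest adjusted p = 0.0583, 603 probes at an unadjusted p under 0.05). The test of unequal dose steps called 0 probes in each of the 22 fits run, including those without 1 array (range 0 to 0), with 111 to 224 probes at an unadjusted p under 0.05. For the 51 named and 2 unnamed called probes of the text, 1269 refits under an alternative kept the call and 418 missed the threshold; the endoplasmic reticulum list, with no called gene, had 2 of 31 called with the 10 exposed arrays alone (where 60 of 5928 probes were called), 1 with slide as a block in addition and 1 with cyclic loess; of 1024 list medians, 12 moved by more than the spread between arrays. The causes were not tested. Of the 69, 55 were well above background on all 10 arrays, and none on fewer than 2 of the 5 arrays at 50 ng/L. No paired analysis was possible because the labels give the arrays no replicate numbers, and those used here only name an array.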
